A study of Homo sapiens with 4 samples.

Results

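The genes described here are 8 members of the AP-1 family of transcription factors, FOS, FOSB, FOSL1, FOSL2, JUN, JUNB, JUND and BATF3. They were picked by gene symbol from the 58233 Ensembl gene identifiers of the count table. The rule used no measured value, but the family was chosen with earlier results of these data known. Messenger RNA was sequenced from MIA PaCa-2 and PANC-1, a pair of established human pancreatic cancer cell lines labelled as wild type, 24 h after treatment with cannabichromene (CBC), a plant cannabinoid, or a control. The labels name the control PBS, whereas the study's methods speak of a vehicle control and of CBC dissolved in acetonitrile, so whether the controls received the solvent is not clear and a part of the solvent in the fold changes cannot be told apart. There was 1 library for each line and treatment, 4 in all. The CBC concentration in MIA PaCa-2 cells was slightly higher than in PANC-1 cells, so the treatment was not identical in the lines. All genes were measured after 24 h of exposure, and earlier times were not analysed here.

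AP-1 is a dimer of basic leucine zipper proteins that binds short palindromic DNA elements. FOS proteins need a JUN partner to bind DNA, JUN proteins can also pair with each other, and BATF3 pairs with JUN proteins without carrying a transactivation domain. FOS, FOSB, JUN and JUNB are immediate early genes, switched on for a short time by growth factors, stress and MAP kinases. FOSL1 is a target of RAS and ERK signalling and is abundant in many carcinomas, including pancreatic cancer, whereas JUND is expressed at a steady level in most cells.

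The libraries held 21742775 to 27903667 counts, so that a gene with 0 counts could lie as high as 3 counts, or 0.110 to 0.135 CPM. CPM is the read count relative to a library size scaled by edgeR's TMM method (trimmed mean of M values). The share of counts from mitochondrially encoded genes went from 5.81% under PBS to 3.86% under CBC in MIA PaCa-2 and from 4.63% to 2.42% in PANC-1. Of the markers checked, KRT8, KRT18, KRT19 and VIM were abundant in all 4 libraries. EPCAM and CDH1 were at or below 1 count in MIA PaCa-2. PTPRC, CD3E, PECAM1, DCN, CPA1, INS and GCG, markers of blood, endothelial, stromal and normal pancreatic cells, had 0 counts in every library. Among the other markers of such cells, COL1A1 was at 134 and 46.4 CPM in PANC-1 under PBS and CBC, while in MIA PaCa-2 CDH5 had 49 counts under PBS and 7 under CBC, and COL3A1 had 61 and 2. PDGFRB had 0 and 15 counts in MIA PaCa-2 and 54 and 18 in PANC-1. The blood marker CD68 had 1 and 9 counts in MIA PaCa-2 and 12 and 22 in PANC-1. The pancreatic marker PRSS1 had at most 1 count in any library. The part of these markers in the results was not tested. In bulk libraries, fewer cells expressing a gene and less RNA per cell cannot be told apart.

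RefSeq promoters (GRCh38.p14) were found for 6 of the 8 genes, all except FOSL1 and BATF3. The 120 bases before each start are shown because these genes differed in whether they were higher after CBC in one line or in both. The first 3 were higher after CBC in MIA PaCa-2 alone, and the last 3 were higher in both lines, JUN by more in MIA PaCa-2, as described below. A link between the promoter letters and the response was not tested. Capitals mark TGACGT, the core of the cyclic AMP response element, in either orientation, or TGACATCA, the AP-1-like element of the JUN promoter.
FOS, chr14:75278708-75278827, plus strand: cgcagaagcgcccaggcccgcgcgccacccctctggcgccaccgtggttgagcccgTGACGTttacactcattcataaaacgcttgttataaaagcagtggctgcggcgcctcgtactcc
FOSB, chr19:45467876-45467995, plus strand: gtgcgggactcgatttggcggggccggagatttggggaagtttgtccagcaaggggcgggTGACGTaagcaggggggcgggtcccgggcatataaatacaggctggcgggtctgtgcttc
JUNB, chr19:12791366-12791485, plus strand: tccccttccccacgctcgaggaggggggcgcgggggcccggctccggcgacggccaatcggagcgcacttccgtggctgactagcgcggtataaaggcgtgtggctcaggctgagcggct
JUN, chr1:58784048-58784167, minus strand: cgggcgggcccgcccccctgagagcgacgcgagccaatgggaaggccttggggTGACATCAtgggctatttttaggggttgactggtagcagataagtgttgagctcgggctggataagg
FOSL2, chr2:28392738-28392857, plus strand: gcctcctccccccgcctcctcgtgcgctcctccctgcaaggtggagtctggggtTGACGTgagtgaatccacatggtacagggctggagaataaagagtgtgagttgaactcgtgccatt
JUND, chr19:18281623-18281742, minus strand: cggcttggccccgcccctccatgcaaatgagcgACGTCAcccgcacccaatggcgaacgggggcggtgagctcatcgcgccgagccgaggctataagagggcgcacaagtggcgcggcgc

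The core TGACGT lay 64 bases before the start of FOS, 60 before FOSB and 66 before FOSL2, counted to its first base. The JUND promoter carried the core on the opposite strand 87 bases before the start, and the full element TGACGTCA further upstream, at 200 bases, which contains the core on both strands. The JUN element began 67 bases before the start. TATAAA was found 33 bases before the start of FOS, 30 before FOSB and 31 before JUNB, and in no other of the 6 windows. Over the 250 bases upstream, on both strands, TGACGT was present in 7.1% of 35116 promoters, TGACATCA in 2.37%, TGACGTCA in 1.65% and TATAAA in 10.7%. Neither the AP-1 element TGACTCA (4.2% of promoters) nor a CArG box, the binding site of SRF (1.16%), was found in the 6 windows. These matches are descriptions of letters and not of bound sites. Elements further upstream were not searched, and near variants, such as TATAAG in the JUND sequence shown, were not counted.

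In MIA PaCa-2 cells, AP-1 transcripts were higher after CBC across the family. Of the 8 genes, 6 were past a 2-fold change upwards (FOS, FOSB, FOSL1, JUN, JUNB and BATF3) and 0 downwards, where 11.5% of the 14001 genes compared in this line were past 2-fold upwards and 8.97% downwards. Genes needed 1 CPM in either library to be compared. FOSB and BATF3 reached this only under CBC, so they could not have been counted downwards. The median log2 fold change of the 8 genes was 2.09, against -0.01 over all genes compared. With 1 library per condition no test was possible, and the intervals given are exact binomial 95% intervals of the count ratio that cover counting error only. All 6 genes had an interval wholly above 2-fold, as had 7.16% of all genes.

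FOS, the classical immediate early partner of JUN, was at 3.01 CPM (67 counts) under PBS and 24.0 CPM (594 counts) under CBC in MIA PaCa-2, and at 1.01 CPM (23 counts) and 0.951 CPM (26 counts) in PANC-1. The MIA PaCa-2 library treated with CBC stood above the other 3. The log2 fold change was 2.96 in MIA PaCa-2 (interval 2.63 to 3.38), or 7.97-fold, and -0.08 in PANC-1 (-0.95 to 0.79). At this depth no change of FOS was detectable in PANC-1.

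FOSB, its close relative, made the widest move of the family. It went from 0.719 CPM (16 counts) to 25.3 CPM (626 counts) in MIA PaCa-2 and from 7.26 CPM (165 counts) to 4.65 CPM (127 counts) in PANC-1. The MIA PaCa-2 change was 4.98 on the log2 scale (4.43 to 5.95), or 35.2-fold, which ranked 37 from the top among 14001 genes. In PANC-1 it was -0.63 (-0.99 to -0.30), so the lines lay on opposite sides of 0. FOSB lies on chromosome 19 (45467995 to 45475179, plus strand) within the span of ERCC1, which is on the other strand and had 3887, 6245, 3965 and 5746 counts in the same order of libraries. The study used a directional library kit, but how the counting treated strand is not given in the sources used here. Some reads of this locus may therefore be assigned to the other gene or to neither.

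FOSL1 encodes FRA-1, a FOS protein without the C-terminal transactivation domain of FOS. Per exon length it was the most abundant member in all 4 libraries. Its level was 115 CPM under PBS and 303 CPM under CBC in MIA PaCa-2 and 271 CPM and 204 CPM in PANC-1. Both PANC-1 libraries lay between the MIA PaCa-2 libraries. The log2 fold change was 1.40 in MIA PaCa-2 (1.33 to 1.46) and -0.41 in PANC-1 (-0.46 to -0.36). FOSL2, which encodes FRA-2, differed in that it was higher after CBC in both lines. It went from 63.3 to 117 CPM between the MIA PaCa-2 libraries and from 61.6 to 108 CPM in PANC-1, log2 fold changes of 0.88 (0.79 to 0.98) and 0.80 (0.71 to 0.90), and neither passed 2-fold.

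JUN, the founding partner of the family, was at 101 CPM under PBS and 402 CPM under CBC in MIA PaCa-2, and at 189 CPM and 257 CPM in PANC-1. Both lines were higher after CBC, by a log2 fold change of 1.99 (1.93 to 2.06), or 3.98-fold, in MIA PaCa-2 and of 0.45 (0.39 to 0.50), or 1.36-fold, in PANC-1. JUNB, which often opposes JUN in growth control, was higher in MIA PaCa-2 alone. It went from 25.4 to 130 CPM there (565 to 3219 counts) and from 20.0 to 17.2 CPM in PANC-1 (455 to 471 counts). The log2 fold changes were 2.35 (2.23 to 2.49), or 5.12-fold, and -0.21 (-0.40 to -0.03). JUNB (chromosome 19, 12791486 to 12793315, plus strand) lies within the span of HOOK2 on the other strand, whose counts of 241, 238, 210 and 261 were below those of JUNB in every library.

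JUND, the JUN protein of resting cells, showed a similar step in both lines. It went from 84.3 to 159 CPM between the MIA PaCa-2 libraries and from 24.8 to 53.1 CPM in PANC-1. The log2 fold changes were 0.91 (0.84 to 0.995), or 1.89-fold, and 1.09 (0.95 to 1.24), or 2.14-fold. BATF3, known for its part in dendritic cell development, was scarce in all libraries, at 0.450 CPM (10 counts) and 2.34 CPM (58 counts) in MIA PaCa-2 and 0.748 CPM (17 counts) and 1.57 CPM (43 counts) in PANC-1. Its log2 fold changes were 2.19 (1.40 to 3.52) and 0.996 (0.23 to 1.98), the latter just short of 2-fold.

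**Figure D1:**
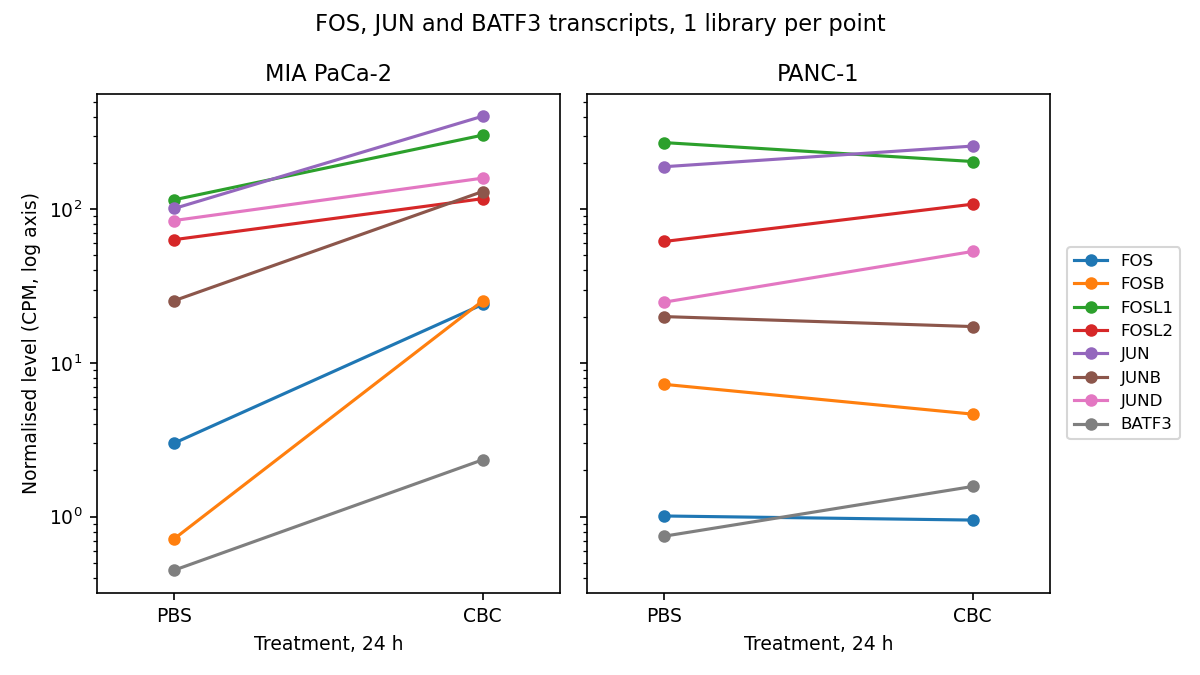
Normalised level of each of the 8 genes (CPM, log axis) under PBS and CBC at 24 h in MIA PaCa-2 (left) and PANC-1 (right), with each point 1 library and no replicate error. In MIA PaCa-2 every line slopes upwards, with FOSB going from 0.719 to 25.3 CPM, whereas in PANC-1 FOSL1, FOSB, JUNB and FOS end below their PBS level.

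In PANC-1 cells, 1 of the 8 genes, JUND, was past 2-fold upwards and 0 downwards, beside 7.71% and 7.03% of 14091 genes. BATF3 passed the filter only through the CBC library in this line too. For 0 of the 8 was the interval wholly above 2-fold, as it was for 3.95% of all genes. JUND was close to the threshold, as its interval began at 0.95, and at 1.023 with library totals in place of TMM. The median log2 fold change of the 8 genes was 0.18, against 0.02 over all genes. FOSL2, JUN, JUND and BATF3 had intervals above 0. FOSB, FOSL1 and JUNB had intervals below 0, and that of FOS included 0. With library totals the interval of JUNB also included 0 (-0.33 to 0.04).

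The responses of the lines were then set against each other for each gene, as the log2 fold change in MIA PaCa-2 minus that in PANC-1, with a normal interval from the 4 counts. No test of this difference was possible, since it leaves no residual degrees of freedom. For 6 of the 8 genes the response was higher in MIA PaCa-2 by more than 2-fold, as for 7.02% of 12502 genes, and for 0 it was higher in PANC-1 by that much, as for 5.90%. In MIA PaCa-2, FOSB and BATF3 passed the filter only through the CBC library. The differences were 5.62 for FOSB (4.99 to 6.57), 3.04 for FOS (2.20 to 3.97), 2.57 for JUNB (2.35 to 2.80), 1.80 for FOSL1 (1.72 to 1.89), 1.55 for JUN (1.46 to 1.63) and 1.19 for BATF3 (0.05 to 2.57). FOSL2 differed by 0.08 (-0.05 to 0.21) and JUND by -0.18 (-0.34 to -0.02). The family thus split into FOSL2 and JUND, with responses of like size in the lines, and the other 6, whose responses were larger in MIA PaCa-2.

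**Figure D2:**
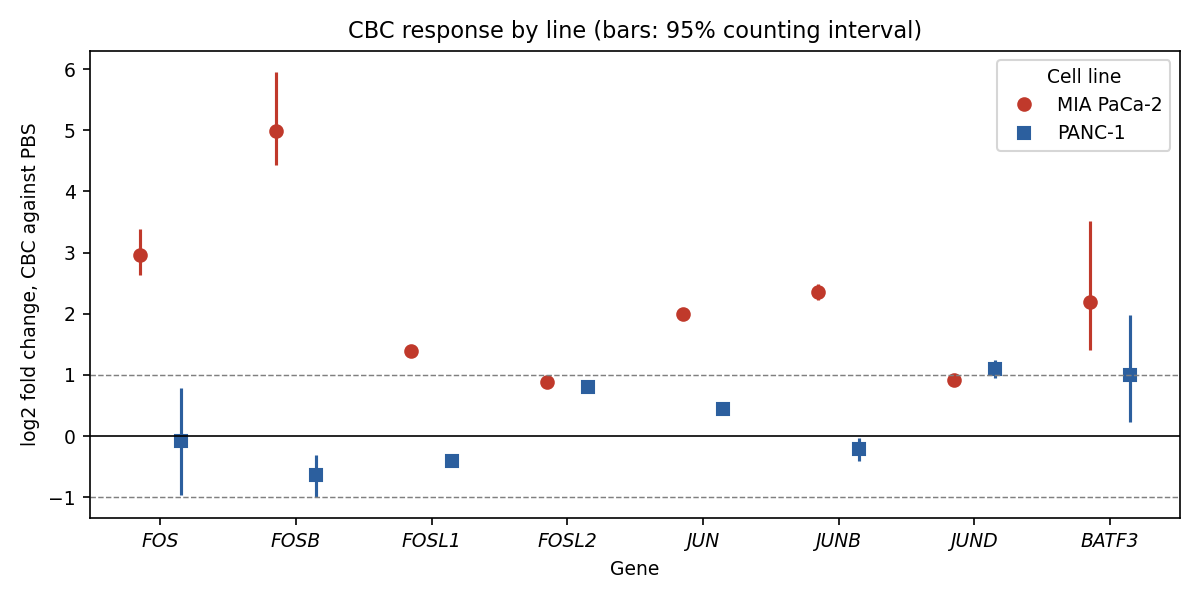
Log2 fold change of CBC against PBS for each gene in MIA PaCa-2 (circles) and PANC-1 (squares), with bars for the 95% interval of counting error and dashed lines at 2-fold. FOSB, FOSL1 and JUNB lie above 0 in MIA PaCa-2 and below 0 in PANC-1, while FOSL2 and JUND have like values in both.

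With the lines as the only replicates, CBC was tested against PBS in edgeR by a quasi-likelihood test in which the line was the block, leaving 1 residual degree of freedom. Of the 8 genes, 1 was called higher and 0 lower, beside 1.91% and 2.11% of 16381 genes tested. At an unadjusted p under 0.05 there were 4 of the 8, beside 20.7% of all genes, and DESeq2 called 2 (JUND and FOSL2), beside 9.81%. DESeq2 gave BATF3 no adjusted p, so it could not be called. The 9.81% is over the 13205 genes with a DESeq2 adjusted p. The list totals used for DESeq2 here and below also count genes without one. The gene called by edgeR was JUND, with a log2 fold change of 1.004 (SE 0.21, edgeR adjusted p = 0.0482), which rose in both of the 2 lines. The call lay near the threshold, and over 6 alternatives its adjusted p ranged from 0.000762 to 0.9999, with 4 of them calling it. With DESeq2's size factors in edgeR the adjusted p was 0.0517, and without the block it was 0.9999. FOSL2, the other gene with a like response in both lines, had a log2 fold change of 0.84 (SE 0.21) and missed the threshold (edgeR adjusted p = 0.0718). For JUN the values were 1.22 (SE 0.36, edgeR adjusted p = 0.114) and for BATF3 1.69 (SE 0.61, edgeR adjusted p = 0.173). FOS, FOSB, FOSL1 and JUNB, whose lines parted, had edgeR adjusted p-values of 0.257, 0.463, 0.536 and 0.333.

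Under PBS, some AP-1 genes differed in level between the lines, in shares near those of all genes. Of 7 genes compared, 2 were more than 2-fold higher in PANC-1 (FOSB and FOSL1), beside 24.0% of 14805 genes, and 2 were more than 2-fold higher in MIA PaCa-2 (FOS and JUND), beside 18.0%. BATF3 was below 1 CPM in both and was not compared. The log2 fold change of PANC-1 against MIA PaCa-2 was 3.19 for FOSB (2.59 to 4.17) and 1.23 for FOSL1 (1.17 to 1.30). It was -1.76 for JUND (-1.90 to -1.63), which was 3.39-fold higher in MIA PaCa-2, and -1.50 for FOS (-2.33 to -0.87). The interval of FOS was not wholly past 2-fold. JUN was higher in PANC-1 within 2-fold (0.90, 0.83 to 0.98), JUNB was lower (-0.34, -0.53 to -0.16), and for FOSL2 no difference was detectable at this depth (-0.04, -0.15 to 0.07). A share of 2 of 7 is near the background in each direction, and each line was 1 library.

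Summed over the 8 genes, AP-1 transcripts were at 393 CPM under PBS and 1162 CPM under CBC in MIA PaCa-2, 2.96-fold higher, and at 575 and 646 CPM in PANC-1, 1.12-fold higher. The JUN subfamily was 3.28-fold higher in MIA PaCa-2 (211 to 691 CPM) and 1.40-fold higher in PANC-1 (234 to 327 CPM). The FOS subfamily was 2.58-fold higher in MIA PaCa-2 (182 to 469 CPM) and, in PANC-1, stood at 341 CPM under PBS and 317 CPM under CBC. To compare genes with each other, counts were divided by exon length and expressed as a share of the 8. FOSL1 made up 39.0% of this pool under PBS and 35.3% under CBC in MIA PaCa-2, and 62.4% and 46.5% in PANC-1. In MIA PaCa-2, JUN went from 17.8% to 24.4%, JUNB from 8.87% to 15.7% and JUND from 27.9% to 18.1%. JUND thus took a smaller share of the pool after CBC although its own level was higher. In PANC-1, JUN went from 22.7% to 30.5% and JUND from 5.60% to 11.8%, while JUNB was at 4.76% and 4.05%. FOSL2 was at 3.59% to 6.46% across the libraries, and FOS, FOSB and BATF3 were each at 1.66% or less in every library. The JUN subfamily as a whole held 54.6% and 58.2% of the pool in MIA PaCa-2 and 33.0% and 46.3% in PANC-1.

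**Figure D3:**
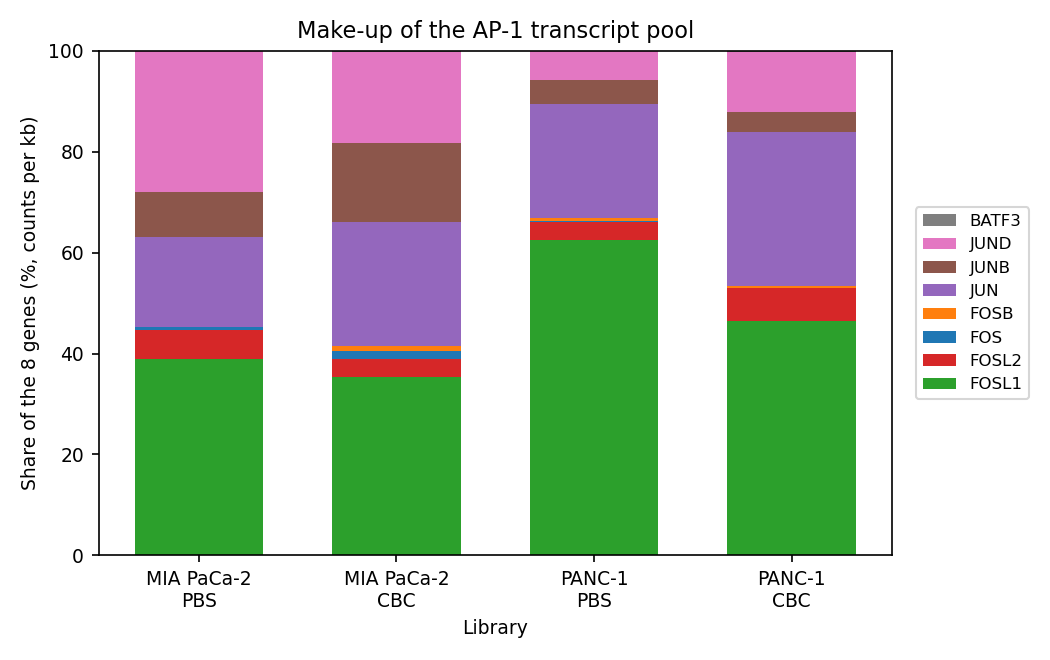
Share of each gene in the summed counts per kilobase of exon of the 8 genes (percent), 1 bar per library. FOSL1 is the largest segment in all 4 bars, at 62.4% in PANC-1 under PBS, and the JUN subfamily widens after CBC from 33.0% to 46.3% in PANC-1.

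Other bZIP proteins that pair with FOS and JUN proteins were higher after CBC in both lines. Of 14 listed, 7 of 12 compared were past 2-fold upwards in MIA PaCa-2, beside 11.5% of all genes. In PANC-1 it was 6 of 11, beside 7.71%. In either line 0 were past 2-fold downwards, beside 8.97% and 7.03%. The medians were 1.22 and 1.17. The quasi-likelihood test of edgeR called 3 of 11, ATF3, MAFF and MAFG, and all 3 rose, beside 1.91% of all genes called higher. DESeq2 called 5 of 11, with JDP2 and CREB5 added, beside 9.81% of all genes in either direction. ATF3, a stress-induced repressor and JUN partner, went from 3.87 to 151 CPM between the MIA PaCa-2 libraries and from 3.91 to 58.5 CPM in PANC-1 (log2 fold change 4.60 over both lines, SE 0.39, edgeR adjusted p = 0.00857). MAFF and MAFG, small MAF proteins that also serve NRF2, had log2 fold changes of 2.62 and 1.64 in MIA PaCa-2 and of 1.38 and 0.88 in PANC-1 (edgeR adjusted p = 0.0304 and 0.0409). JDP2, a repressor that dimerises with JUN, was at 4.77 and 10.9 CPM in the MIA PaCa-2 libraries and at 15.8 and 42.1 CPM in PANC-1 (edgeR adjusted p = 0.0515). For 2 of 11 partners, ATF3 and MAFF, the response was more than 2-fold higher in MIA PaCa-2, beside 7.02% of all genes. The differences of ATF3 and MAFF between the lines were 1.39 and 1.24.

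For the MAP kinases that act on AP-1 proteins, the shares past 2-fold were near or below those of all genes. Of 20 compared in each line, 2 were past 2-fold upwards and 1 downwards in MIA PaCa-2 (11.5% and 8.97% of all genes), and 1 upwards and 0 downwards in PANC-1 (7.71% and 7.03%), with medians of -0.01 and 0.08. MAPK9, which encodes the JUN kinase JNK2, was at 92.9 and 38.7 CPM in the MIA PaCa-2 libraries and at 67.2 and 52.7 CPM in PANC-1. MAPK7 (ERK5) had log2 fold changes of 1.01 and 0.21, MAP3K5 (ASK1) of -0.88 and 0.22, MAPK12 of 0.12 and 0.48 and MAP2K5 of -0.25 and 0.68. MAPK13 was at 5.28 and 13.5 CPM in PANC-1. The edgeR test called 0 of 20, with 1 at an unadjusted p under 0.05 (20.7% of all genes), and DESeq2 called 0 (9.81%). Kinase activity was not measured by these data.

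Among factors that transcribe FOS and JUN genes, 1 of 11 was past 2-fold upwards and 1 downwards in MIA PaCa-2, shares near the 11.5% and 8.97% of all genes. In PANC-1 it was 0 of 12 in either direction, beside 7.71% and 7.03%. MEF2D, which binds the JUN promoter, was at 48.1 and 116 CPM in the MIA PaCa-2 libraries and at 47.4 and 79.2 CPM in PANC-1. MRTFB, a cofactor of SRF, was at 30.5 and 12.4 CPM in the MIA PaCa-2 libraries and at 129 and 104 CPM in PANC-1. CREM had log2 fold changes of 0.89 and 0.97, MEF2A of 0.97 and 0.15 and MRTFA of 0.24 and -0.73. The edgeR test called 0 of 12, with 3 at an unadjusted p under 0.05 (20.7% of all genes). DESeq2 called 1, MEF2D, beside 9.81% of all genes.

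Among genes for the turnover of AP-1 proteins and mRNAs, 2 of 12 were past 2-fold upwards in MIA PaCa-2, ZFP36 and ZFP36L1, and 0 in PANC-1, beside 11.5% and 7.71% of all genes. Both encode proteins that bind AU-rich elements and speed mRNA decay. ZFP36 went from 6.07 to 61.7 CPM between the MIA PaCa-2 libraries and from 325 to 497 CPM in PANC-1. ZFP36L1 was at 220 and 576 CPM in the MIA PaCa-2 libraries and at 24.8 and 26.2 CPM in PANC-1. ZFP36L2 had log2 fold changes of 0.88 and -0.20, ELAVL1, which stabilises such mRNAs, of -0.42 and -0.64, and the ubiquitin ligase adaptor DET1 of -0.23 and 0.66. For 3 of 12, ZFP36, ZFP36L1 and ZFP36L2, the response was more than 2-fold higher in MIA PaCa-2, beside 7.02% of all genes. The edgeR test called 0 of 12, with 3 at an unadjusted p under 0.05 (20.7% of all genes). DESeq2 called 1, ZFP36, beside 9.81% of all genes.

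Of 24 textbook AP-1 target genes, many were higher after CBC. In MIA PaCa-2 9 of 17 compared were past 2-fold upwards and 2 downwards (median 1.85), beside 11.5% and 8.97% of all genes. In PANC-1 it was 5 of 16 upwards and 1 downwards (median 0.49), beside 7.71% and 7.03%. The shares downwards were near those of all genes. The edgeR test called 5 of 20, all of which rose, beside 1.91% of all genes called higher. They were VEGFA, HBEGF and MMP10, and CXCL8 and LIF, which were named after their values were seen. DESeq2 called 9 of 20, a total that may include genes without an adjusted p, beside 9.81% of the genes with one, in either direction. The 9 left out MMP10 and included CCND1 and CD44, also named after their values were seen. CCND1 and CD44 were lower after CBC in both lines (log2 fold changes of -1.10 and -0.80 in MIA PaCa-2 and of -0.48 and -0.59 in PANC-1). VEGFA, the angiogenic growth factor, went from 97.7 to 388 CPM between the MIA PaCa-2 libraries and from 63.6 to 205 CPM in PANC-1 (log2 fold change 1.84, SE 0.20, edgeR adjusted p = 0.0125). HBEGF, an EGF receptor ligand, went from 4.63 to 28.3 CPM and from 23.4 to 58.7 CPM (edgeR adjusted p = 0.0357). The adjusted p-values of CXCL8, LIF and MMP10 in edgeR were 0.0225, 0.0355 and 0.0430, but MMP10 had at most 1 count in either PANC-1 library, so its value rests on MIA PaCa-2. PLAUR, the urokinase receptor, was at 25.3 and 151 CPM in the MIA PaCa-2 libraries and at 7.34 and 14.7 CPM in PANC-1 (edgeR adjusted p = 0.0515). The collagenase MMP1 had the larger response in PANC-1, where it was at 5.76 and 37.0 CPM (log2 fold change 2.67, against 0.81 in MIA PaCa-2). The chemokine CCL2 was at 22.8 and 6.48 CPM in PANC-1 and at most 1 count in MIA PaCa-2.

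Of 18 immediate early genes outside AP-1, most of those compared were higher after CBC in MIA PaCa-2. There 10 of 14 were past 2-fold upwards and 1 downwards (median 1.86), beside 11.5% and 8.97% of all genes. In PANC-1 it was 1 of 14 upwards and 2 downwards (median 0.14), beside 7.71% and 7.03%. For 7 of 12 the response was more than 2-fold higher in MIA PaCa-2 (7.02% of all genes) and for 1, KLF2, named after its value was seen, in PANC-1 (5.90%). EGR1, a zinc finger factor induced through SRF, was at 31.5 and 288 CPM in the MIA PaCa-2 libraries and at 6.95 and 9.44 CPM in PANC-1, where its log2 fold change was 0.44 (0.15 to 0.74). IER3 and the MAP kinase phosphatase gene DUSP1 had log2 fold changes of 2.25 and 2.06 in MIA PaCa-2 and of 0.35 and 0.62 in PANC-1, so both were higher after CBC in each line. CCN1 and CCN2, matricellular proteins and targets of YAP and SRF, were lower in PANC-1, by a log2 fold change of -1.11 and -1.80. In MIA PaCa-2 CCN1 was higher after CBC (log2 fold change 1.11, 1.05 to 1.18). CCN2 had 5 counts under PBS and 21 under CBC there, below 1 CPM, and was not compared. The edgeR test called 2 of 16, beside 1.91% of all genes called higher. These 2, KLF4 and KLF6, rose (edgeR adjusted p = 0.0204 and 0.0316). DESeq2 called 3 with DUSP1, beside 9.81% of all genes in either direction. KLF6 was named after its value was seen. The responses of KLF4 in the lines differed by 0.16.

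**Figure D4:**
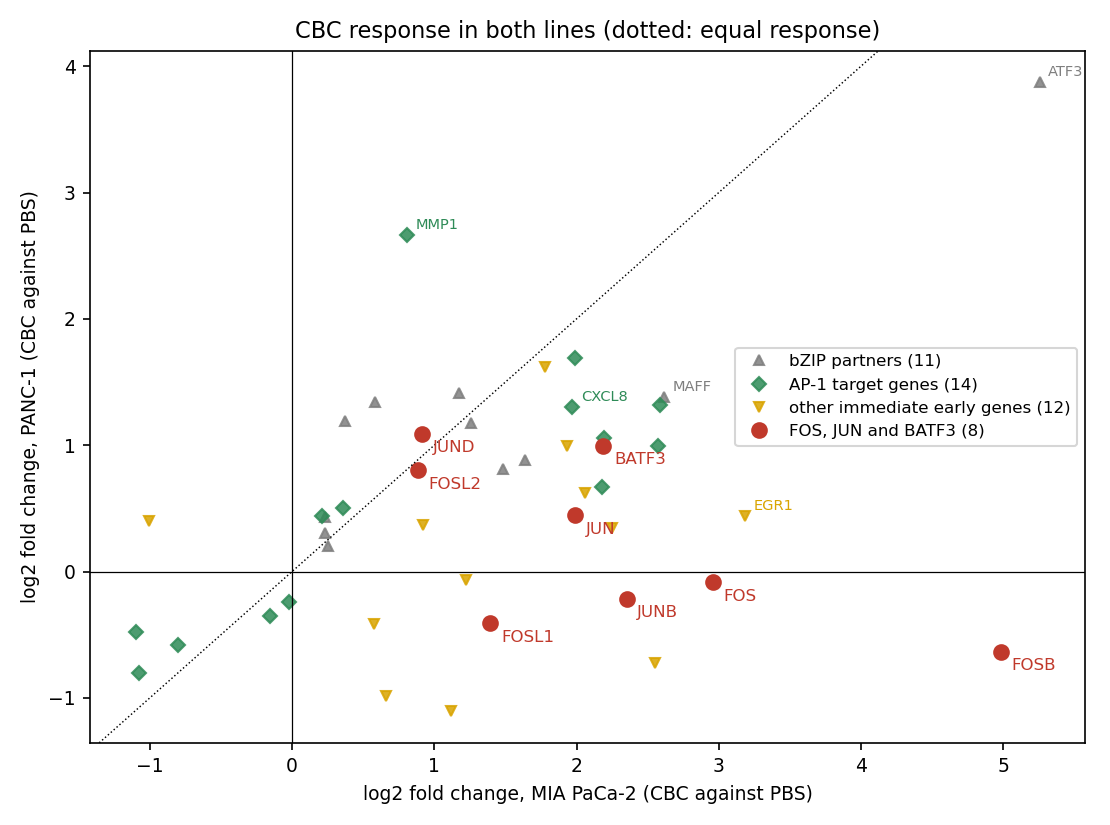
Log2 fold change of CBC against PBS in MIA PaCa-2 (horizontal axis) and PANC-1 (vertical axis) for the 8 genes and for the bZIP partners, AP-1 target genes and other immediate early genes that passed the filter in both lines, with the dotted line marking equal responses. FOSL2 and JUND lie near the dotted line, FOS, FOSB, FOSL1 and JUNB lie below it at or under 0 in PANC-1, and ATF3 is high in both lines.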

How the data were processed

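The authors prepared paired-end reads of polyadenylated RNA by trimming (cutadapt 2.7), alignment to GRCh38 (STAR) and counting over Ensembl genes (HTSeq). They deposited raw counts without a filter and a TMM-scaled signal per library, which is in CPM. This signal equalled counts divided by edgeR's TMM library sizes, with a largest relative difference of 4.92e-10. The aligner's version and the strand setting of the counting are not given in the sources used here. Symbols were matched for 57392 of 58233 identifiers. Positions and exon lengths came from GENCODE 44.

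Log2 fold changes came from the deposited counts through edgeR 4.0.16 (R 4.3.3), using TMM factors of the full table of 4 libraries and a prior count of 2. Genes reaching 1 CPM in either library were compared, and 2-fold means a log2 fold change past 1. Intervals are exact Clopper-Pearson 95% intervals (scipy 1.17.1). They and the 3-count limit cover counting error only, since reads carried no molecular identifiers. With 1 library per condition, nothing within a line could be tested, and whether libraries came from separate cultures is not stated.

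CBC was tested against PBS with edgeR's quasi-likelihood test on 16381 genes kept by its filter, with the cell line as a block and Benjamini-Hochberg adjustment at 0.05. The pairing comes from the lines, and same-line deviations correlated at 0.923 across genes. Biological variation was estimated at a common coefficient of 22.9%. The scripts were tested on simulated data. Scaling this test by TMM recomputed on the filtered genes was tried after the data were seen, and both scalings had been run before the full-table TMM was kept as the reported one. It gave 771 calls against 659 and also called JDP2 and PLAUR. Alternatives with other filters, prior counts, scalings, lengths, and DESeq2 1.42.0 are given in the closing section.

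The members and gene lists were chosen with earlier results of these data known. All 8 members are named, and from each other list the 3 genes with the largest absolute change in each line among those with at least 10 CPM. For each member averaging at least 10 CPM, the 2 genes nearest in pattern are also named. Promoters came from RefSeq.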

Additional observations from a re-analysis of the deposited data

Results flagged for a closer look

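The responses of 3 genes ran in opposite directions in the lines, with counting intervals clear of 0 on both sides under TMM scaling. With library totals, an alternative for the intervals added after the data were seen, that of JUNB in PANC-1 included 0 (-0.33 to 0.04), whereas those of FOSB and FOSL1 did not. In MIA PaCa-2 against PANC-1 the log2 fold changes differed by 5.62 for FOSB, 2.57 for JUNB and 1.80 for FOSL1. Each line contributed 1 library per treatment, and these differences were not tested. The part of the CBC concentration, which was slightly higher in MIA PaCa-2, cannot be told apart from that of the line. The part of the cell death after CBC, which the study reported as larger in MIA PaCa-2, was not tested.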

How the results depend on the processing

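The count of members past 2-fold in MIA PaCa-2 and under PBS stayed within 1.5 times under the planned filters, prior counts, scalings and call rule. In PANC-1 the count of 1 became 2 with a prior count of 0.5 and with library totals, and 0 when the whole interval had to pass 2-fold. In the test over both lines the count of 1 became 0 without the replicate block (0 calls over all genes, 357 at an unadjusted p under 0.05), 0 with DESeq2 size factors in edgeR, 6 without a filter and 2 with DESeq2 (JUND and FOSL2). It was 1 with library totals and with TMM recomputed on the filtered genes. Over all genes the test made 659 calls, against 2063 without a filter and 1296 with DESeq2. The share of the JUN subfamily was 52.9% (MIA PaCa-2, PBS), 56.4% (MIA PaCa-2, CBC) and 45.6% (PANC-1, CBC) by the longest transcript, and 59.5% (MIA PaCa-2, CBC), 40.6% (PANC-1, PBS) and 50.7% (PANC-1, CBC) without division by length. No log2 fold change of a member changed sign under these alternatives. Without division by length, JUN and not FOSL1 had the largest share under CBC, at 34.6% against 26.0% in MIA PaCa-2 and 39.8% against 31.6% in PANC-1. The JUN subfamily then also held more than the FOS subfamily (49.1%) in PANC-1 under CBC, whereas by exon length it held less. Library totals moved the all-gene median of PANC-1 against MIA PaCa-2 under PBS from 0.10 to -0.03. The cause of these changes was not tested. No replicate could be left out, since each condition has 1 library and the blocked fit would keep no residual degree of freedom.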

Other observations

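Among 10068 genes averaging at least 10 CPM, those nearest to each member by Euclidean distance of centred log2 CPM over the 4 libraries were CDK2AP2 (0.0853) and DNAJC3 (0.0866) for FOSL1, and FBXO30 (0.0783) and ZSCAN21 (0.0831) for FOSL2. For JUN they were TGIF1 (0.185) and SLC17A5 (0.211), for JUND MYL5 (0.116) and PLD6 (0.185). JUNB had more distant neighbours, SLC43A2 (0.365) and SIK1 (0.432). With 4 libraries, a short distance is a description of these libraries only.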
